A study of Homo sapiens with 12 samples.

Results

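The control-corrected YAP5SA effect is the response of a gene to doxycycline in a line that carries inducible YAP5SA, minus its response in a control line that carries inducible GFP. It was computed for each gene on the log2 scale as YAP5SA with doxycycline minus YAP5SA without it, minus the same step in the GFP line, and is called the difference below. All 12 of the 12 libraries of the series enter it, 3 in each of 4 groups. A positive difference means a more positive response in the YAP5SA line and a negative difference a more negative one, whichever line moved.

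The cells were a human podocyte line held in an immortal state by a temperature-sensitive SV40 large-T antigen. Both lines were derived from it with a stable Tet-On pCW construct, for (FLAG-NLS-)YAP5SA in one and for eGFP in the other. Cells grow at 33 °C and had spent 12 days at 37 °C, where the antigen is inactive. Each line was sampled untreated and after 24 hours of doxycycline at 0.1 µg/ml, which makes 4 groups. The YAP5SA groups are called uninduced and induced below, and the GFP groups are named by the drug. All groups share the large-T antigen, the integrated vector and the differentiation step. The labels number the libraries 1 to 3 in every group and do not say whether these were separate cultures or clones, so p-values measure the spread between these libraries, which may be technical. The labels describe 1 line for each construct, so what differs between the lines beyond the insert cannot be told apart from it in any library. The difference sets each line against its own uninduced libraries.

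YAP is a transcriptional co-activator with no DNA-binding domain of its own. In the nucleus it binds the TEAD transcription factors, and the LATS kinases of the Hippo pathway phosphorylate it and hold it in the cytoplasm. YAP5SA replaces serines that LATS phosphorylates with alanine and so escapes this control. Known outputs of the YAP and TEAD complex include the matricellular genes CCN1 and CCN2 and inhibitors of YAP itself, among them LATS2 and the angiomotin AMOTL2. Podocytes are the epithelial cells whose foot processes cover the glomerular capillaries, and parietal epithelial cells line the capsule around them.

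Libraries held 24477592 to 25177086 counts in the GFP line and 25493014 to 25993413 in the YAP5SA line. Levels are given in CPM, the count scaled by library size after trimmed-mean (TMM) normalization. NPHS1, which encodes nephrin of the slit diaphragm, had 18 counts in all, and WT1, a transcription factor gene of podocytes, had 71. Synaptopodin (SYNPO) stood at 430 to 521 CPM over the group means and podocalyxin (PODXL) at 34.8 to 44.1 CPM. The genes PAX2, PAX8 and CLDN1, which mark parietal cells, stood at 50.4 to 65.9, 438 to 572 and 383 to 470 CPM. The cells thus carried a part only of the podocyte marker set, and UMOD and AQP2 (tubule) had 0 counts. Marker sums of the tubule, endothelial and leukocyte lists stayed below 5, 44 and 5 CPM in every library. The mesangial, fibroblast and smooth muscle list of 14 summed to 2854 to 4521 CPM, led by COL1A1 (1761 to 1862 CPM over the group means) and TAGLN (1168 to 1310 CPM), while its member ITGA8 had 0 counts.

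Library 1 of the GFP line with doxycycline and library 1 of the induced group stood apart in mitosis genes. Summed over 28 such genes, the 3 GFP libraries without doxycycline held 757, 941 and 930 CPM and those with it 555, 947 and 923 CPM. Uninduced libraries held 1069, 1052 and 984 CPM and induced libraries 1545, 1083 and 1004 CPM. The counts of called genes, overall and by list, are also given without the libraries numbered 1.

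Levels of YAP1 (ENSG00000137693, chromosome 11, 102110461 to 102233423; GRCh38) were the check on the labels, and reads of the native gene and of the transgene may both fall on it. It stood at 173, 332 and 321 CPM in GFP libraries without doxycycline and at 177, 326 and 312 CPM with it. Uninduced libraries held 221, 375 and 345 CPM and induced ones 1757, 1672 and 969.8 CPM, with no overlap. The difference was 2.24 ± 0.52 (SE; edgeR adjusted p = 0.0362), but its call was lost in 10 of the 12 fits leaving out 1 library (2.02 to 2.49). It was also lost when low counts were not filtered (2.25, adjusted p = 0.0768). Libraries numbered 1 were the lowest of their group for YAP1 in all groups but the induced one, where library 3 was lowest. No row of the table holds eGFP.

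The difference passed the test in 1202 of 17470 genes (6.88%; edgeR quasi-likelihood test, Benjamini-Hochberg adjusted p below 0.05). It was more positive in 629 genes (3.60%) and more negative in 573 (3.28%). Most of these differences were below 1 on the log2 scale. The median size was 0.45 among the called genes and 0.16 among all genes tested, and 127 called genes reached 1, of which 47 were positive and 80 negative. The median of all genes was -0.004. Without GFP library 1 with doxycycline 750 genes were called, without GFP library 3 without doxycycline 768, and without uninduced library 1 781. Those reaching 1 numbered 78, 83 and 83 without these libraries, and 78 without induced library 2. The other 8 such fits called 806 to 1387 genes. Without the 4 libraries numbered 1, in a fit chosen after the data were seen, 41 genes were called, 22 of them reaching 1. The median SE rose from 0.14 to 0.19. Without the libraries numbered 2 or 3 the counts were 582 and 701, at a median SE of 0.15 in both.

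In the induced libraries 1, 2 and 3 the 629 genes called more positive lay a median of 0.41, 0.45 and 0.38 above the uninduced mean on the log2 scale, and the 573 called more negative a median of 0.47, 0.54 and 0.41 below it. Library 3, with the lowest YAP1 of the induced group, had the smallest median in both sets. Library 1, with the highest YAP1, did not have the largest, which was that of library 2 in both sets. A relation to YAP1 over 3 libraries was not tested. These genes were chosen with these libraries, so the medians describe them and test nothing.

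**Figure D1:**
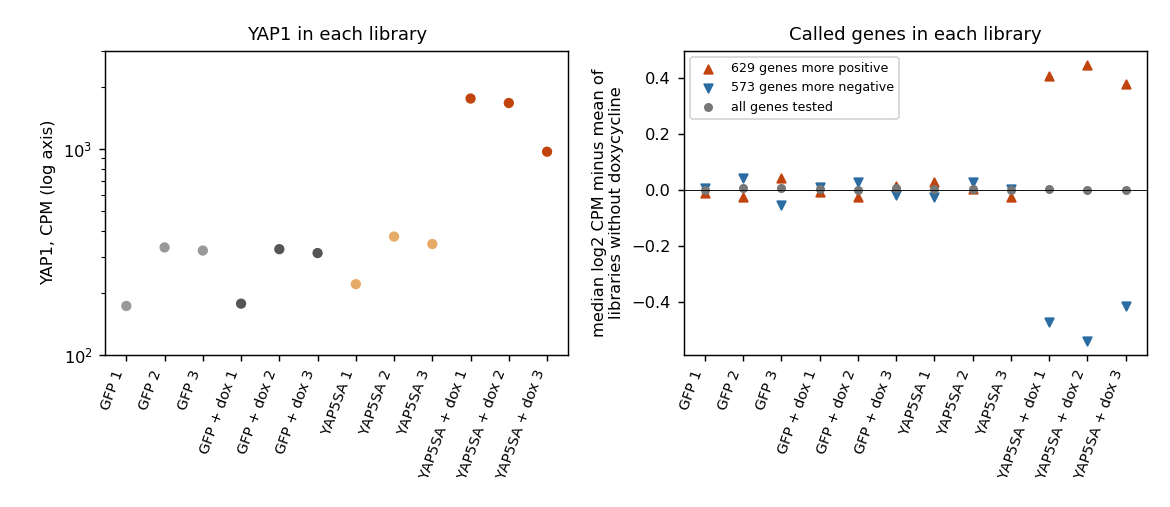
Left, YAP1 in each library in CPM on a log axis, from 173 in GFP library 1 to 1757 in induced library 1. Right, for each library, the median log2 CPM of the called genes minus the mean of the libraries of the same line without doxycycline, for the 629 genes more positive (triangles up), the 573 more negative (triangles down) and all genes tested (circles); the induced libraries alone lie away from 0.

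The GFP line changed little in most called genes. Among genes called more positive the median change on doxycycline was 0.41 in the YAP5SA line and -0.01 in the GFP line, whose middle 50% lay between -0.04 and 0.02. Among genes called more negative the medians were -0.47 and 0.004, the middle 50% in the GFP line lying between -0.03 and 0.04. Induced libraries lay above uninduced ones in all 629 genes and below them in all 573, as the choice of called genes from these libraries makes likely; over all genes tested the shares were 17.8% and 16.8%. In the GFP line, libraries with and without doxycycline were separated the opposite way in 27 of the 629 genes (4.29%, against 2.87% of all genes tested in that direction) and 33 of the 573 (5.76%, against 3.35%). Subtracting the control widened the error, since the median SE of all genes was 0.14 for the difference and 0.10 for the YAP5SA line alone. Uninduced YAP5SA cells stood at a median of 0.17 above GFP cells without doxycycline in the genes more positive and 0.11 below them in those more negative. These values share the uninduced libraries with the difference and are given side by side only.

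**Figure D2:**
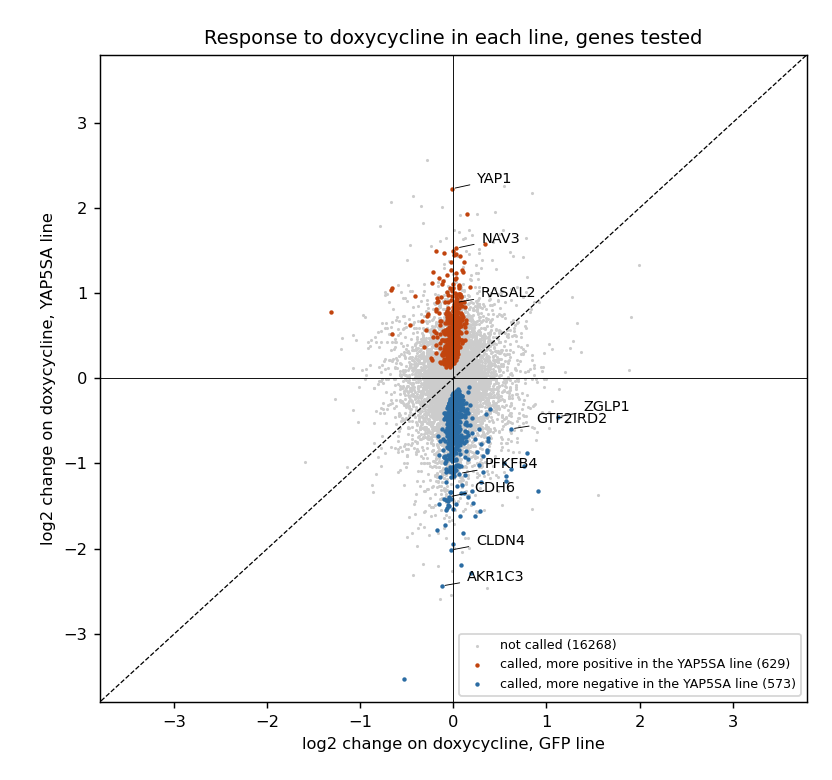
Each point is 1 of 17470 genes, with its log2 change on doxycycline in the GFP line (horizontal) and in the YAP5SA line (vertical); the dashed line marks equal responses and so a difference of 0. Called genes (629 and 573) lie along the vertical axis, with GTF2IRD2 and ZGLP1 among the few to its side; the lowest point is SMTNL2, below 1 CPM in every library.

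Promoters of called genes were read for the TEAD core motif GGAATG on either strand, in 300 bases of RefSeq promoter sequence (250 before the start and 50 after it, GRCh38.p14). Promoters were matched by symbol for 12085 of 17470 genes tested. The motif was in 11.02% of these (1332), in 14.6% of 507 promoters of genes called more positive, in 8.72% of 447 of genes called more negative, and in 14.0% of all 35116 promoters of the table. Of 17 matched members of a list of YAP/TAZ targets 6 held it. The 250 bases before the start are shown for CCN2, a textbook target, and for 3 genes with a positive difference picked because their promoters hold the motif, with each match in capitals. Most promoters of genes called more positive lack it in this window, and some of genes called more negative hold it (UGDH, SOX4 and TP53I3).

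CCN2, chr6:131951373-131951622, minus strand: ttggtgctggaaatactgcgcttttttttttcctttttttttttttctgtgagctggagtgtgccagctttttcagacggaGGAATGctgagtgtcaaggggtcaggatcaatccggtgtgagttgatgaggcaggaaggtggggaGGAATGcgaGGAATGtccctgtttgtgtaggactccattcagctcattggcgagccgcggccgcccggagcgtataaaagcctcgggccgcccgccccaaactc

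MAMDC2, chr9:70043331-70043580, plus strand: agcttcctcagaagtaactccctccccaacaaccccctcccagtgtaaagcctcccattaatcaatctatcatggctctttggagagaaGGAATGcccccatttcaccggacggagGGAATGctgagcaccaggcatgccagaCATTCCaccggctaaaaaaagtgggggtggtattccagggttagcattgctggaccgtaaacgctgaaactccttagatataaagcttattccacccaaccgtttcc

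RASAL2, chr1:178093854-178094103, plus strand: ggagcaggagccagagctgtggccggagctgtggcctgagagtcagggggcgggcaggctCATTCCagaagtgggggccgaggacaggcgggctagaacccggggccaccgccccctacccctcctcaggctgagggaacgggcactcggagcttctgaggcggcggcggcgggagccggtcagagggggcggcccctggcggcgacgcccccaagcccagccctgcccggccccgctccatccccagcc

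COL12A1, chr6:75206054-75206303, minus strand: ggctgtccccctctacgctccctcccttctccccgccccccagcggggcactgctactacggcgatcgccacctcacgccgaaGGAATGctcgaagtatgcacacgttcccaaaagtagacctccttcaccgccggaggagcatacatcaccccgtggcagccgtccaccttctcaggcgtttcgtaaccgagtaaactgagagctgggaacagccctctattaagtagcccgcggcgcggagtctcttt

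CCN2 and MAMDC2 had 3 matches each, starting 169, 104 and 95 bases and 161, 134 and 107 bases before the start. RASAL2 had 1 match at 190 bases and COL12A1 1 at 167 bases. A match is a description of the letters, and binding was not measured. The AP-1 motif TGANTCA, which does not share its letters with the TEAD core, was in 4.93% of promoters of genes tested, 3.94% of those more positive and 5.37% of those more negative. The hypoxia response core ACGTG was in 26.1%, 23.5% and 21.5% of them. Of the 17 matched YAP/TAZ targets 6 held it, as many as held the TEAD core. Called genes also differed in GC content, as given below, and the motif shares were not corrected for it.

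Strength of evidence and size picked different genes. By smallest p-value, RASAL2 led (ENSG00000075391, chromosome 1, 178094141 to 178484147), which encodes a Ras GTPase-activating protein. GFP libraries held 90.0, 84.1 and 88.9 CPM without doxycycline and 90.3, 90.4 and 86.6 CPM with it, uninduced libraries 108, 108 and 111 CPM and induced ones 199, 212 and 196 CPM. Each induced library lay above every other library, and the GFP groups overlapped. The difference was 0.87 ± 0.06 (adjusted p = 3.17e-05). The change was 0.89 ± 0.04 in the YAP5SA line and 0.02 ± 0.04 in the GFP line. The Golgi small GTPase gene RAB30 stood at 33.3, 36.6 and 35.6 CPM in GFP cells without and 34.5, 38.5 and 36.6 CPM in those with doxycycline, 54.5, 50.9 and 50.1 CPM uninduced and 104, 106 and 97.9 CPM induced, a difference of 0.93 ± 0.08 (adjusted p = 1.66e-04). DAPK1, the death-associated protein kinase gene, stood at 177, 165 and 161 CPM in GFP cells without and 181, 158 and 162 CPM in those with doxycycline, 232, 223 and 209 CPM uninduced and 443, 527 and 463 CPM induced, a difference of 1.11 ± 0.10 (adjusted p = 2.03e-04). All 3 genes showed a step from GFP to uninduced cells and a larger one on induction. The calcium-activated chloride channel gene ANO2 (1.29 ± 0.12), the crystallin-domain gene CRYBG2 (1.45 ± 0.14), the non-coding LINC02987 (1.07 ± 0.10), the RNA-binding gene RBMS2 (0.56 ± 0.05) and SCAF11 (0.55 ± 0.05) followed on the positive side. On the negative side the list of the 10 smallest held PFKFB4 and the phosphatidylinositol transfer gene PITPNM1 (-0.58 ± 0.05), whose induced libraries held 129.6, 125 and 131 CPM against 189, 198 and 193 CPM uninduced.

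The strand setting of the counting is not given in the sources used here, so reads of LINC02987 and of LINC00662 on the opposite strand cannot be told apart, and the same holds for other overlapping pairs listed below. Of the genes named in this text, the following were also called in every one of 28 alternative fits, the one without the libraries numbered 1 among them: RASAL2, RAB30, DAPK1, ANO2, CRYBG2, LINC02987, RBMS2, SCAF11, NAV3, SLIT2, PFKFB4 and TUBA1A. FRY, COL12A1, KLF5 and DDIT4 were called without the libraries numbered 1 but lost their call in another fit. The other called genes whose differences are given here missed the threshold without the libraries numbered 1, with values there of 0.86 for LATS2, 0.64 for TEAD1 and -2.37 for CLDN4 (adjusted p = 0.0576 in each), -0.62 for KRT19 (0.0533), 0.71 for EZR (0.0819) and 0.74 for AMOTL2 (0.114). Exons of YAP1, RASAL2, RBMS2, MAMDC2, FRY, GDF5, CDH6, SLC16A3, TUBA1A, TEAD2, WWC2, PTPN14, AXL, CDC42EP3, SLC2A1, P4HA2, ANGPTL4, SREBF1, ACLY, UGDH, NQO1, SESN1, SESN3, EZR, NEFM, CD44, ITGA6, THBS1, PALLD, TNS1, EGFR, LIF, SOX4, IER3, TP53I3, BCL2L11, PNO1, BMP1, CFLAR, CEBPB, FADS2, FGF2, ITGB8, KCNMA1, LAMA2, PAPPA, SLC7A6, WWTR1, AMOTL1 and CRIM1 overlap those of another gene on the opposite strand. A gene named below kept its call in each of the 12 fits that left out 1 library unless a loss is stated.

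Among the largest positive differences after YAP1 was the neuron navigator gene NAV3, which encodes a microtubule-binding protein. It stood at 18.1, 19.5 and 19.8 CPM in GFP cells without and 17.2, 19.98 and 21.3 CPM in those with doxycycline, 46.8, 32.7 and 35.6 CPM uninduced and 106, 113 and 114 CPM induced, a difference of 1.50 ± 0.17 (adjusted p = 5.64e-04). Uninduced library 1 was the highest of its group, and induced libraries were far above it. ANKRD2, a muscle ankyrin repeat gene, differed by 1.57 ± 0.19, from 5.17, 5.002 and 6.72 CPM uninduced to 16.2, 14.0 and 16.6 CPM induced, with 4.49, 4.40 and 4.78 CPM in GFP cells without and 4.19, 3.69 and 4.87 CPM in those with doxycycline. The cingulin gene CGN, a tight junction plaque protein, differed by 1.51 ± 0.27, with 12.3, 13.6 and 8.86 CPM uninduced and 30.0, 38.4 and 29.8 CPM induced. The adherens junction gene AJAP1 differed by 1.37 ± 0.18 and its GFP and uninduced libraries all lay between 1.82 and 2.33 CPM, against 5.81, 5.48 and 6.55 CPM induced. Thus AJAP1 had no step between the lines without doxycycline, while NAV3 and CGN did. The kinesin gene KIF17 (1.46 ± 0.20), the secreted-protein gene MAMDC2 (1.39 ± 0.20) and FRY (1.26 ± 0.17), a scaffold of NDR kinases, were also in this group.

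Besides YAP1, CCL11 and KL among the 12 largest lost their call in at least 1 fit that left out a library. The eotaxin gene CCL11 differed by 1.68 ± 0.35, and lost its call without GFP library 3 without doxycycline (1.59, adjusted p = 0.0528) and with no filter on low counts (1.68, adjusted p = 0.0844). Klotho (KL), a co-receptor for FGF23, differed by 1.43 ± 0.36, from 2.92, 2.86 and 3.40 CPM uninduced to 8.82, 6.07 and 10.4 CPM induced, and lost its call in 7 of 12 fits that left out a library (1.25 to 1.73) and in limma-voom (adjusted p = 0.058).

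Negative differences were ranked among called genes with at least 2 CPM in the highest group, separated libraries and no antisense symbol. The largest of these belonged to the aldo-keto reductase gene AKR1C3, a steroid-metabolising enzyme, at -2.31 ± 0.40 (adjusted p = 0.00464). Its level was low throughout, 2.09, 2.38 and 2.33 CPM in GFP cells without and 2.14, 1.99 and 2.10 CPM in those with doxycycline, 1.30, 1.31 and 1.30 CPM uninduced and 0.356, 0.0394 and 0.316 CPM induced, and close copies in its gene family make the counting uncertain. The claudin gene CLDN4 was far better measured. It stood at 41.9, 44.4 and 44.9 CPM in GFP cells without and 40.8, 44.6 and 43.1 CPM in those with doxycycline, 36.1, 35.4 and 38.5 CPM uninduced and 13.2, 4.54 and 9.47 CPM induced, a difference of -1.99 ± 0.34 (adjusted p = 0.00776). The induced libraries differed among themselves, library 2 being lowest, yet none reached another group. GDF5, a ligand of the BMP family, stood at 42.9, 35.7 and 38.2 CPM uninduced and 14.0, 9.94 and 17.4 CPM induced (difference -1.45 ± 0.20). GFP libraries with and without doxycycline overlapped.

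The synaptotagmin gene SYT12 (-1.68 ± 0.31), the ubiquitin ligase gene NEURL3 (-1.60 ± 0.32) and the non-coding LNCTSI (-1.44 ± 0.24) were below 7 CPM in every library. C10orf55 (-1.42 ± 0.23) lies across the urokinase gene PLAU on the other strand, whose own difference was -1.38 ± 0.31 with 10 of 12 calls lost (-1.75 to -1.17), and the reads of the pair cannot be told apart. GPRIN3 (-1.92 ± 0.50), the neuronal tubulin gene TUBB3 (-1.55 ± 0.36) and the drug-metabolising gene CYP3A5 (-1.45 ± 0.40) lost their calls in 8, 4 and 11 of the 12 fits that left out a library (ranges -2.45 to -1.42, -1.95 to -1.33 and -1.67 to -1.15). TUBB3 lost it without GFP library 1 without doxycycline (-1.48), GFP library 2 with it (-1.44), uninduced library 3 (-1.44) or induced library 2 (-1.42).

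**Figure D3:**
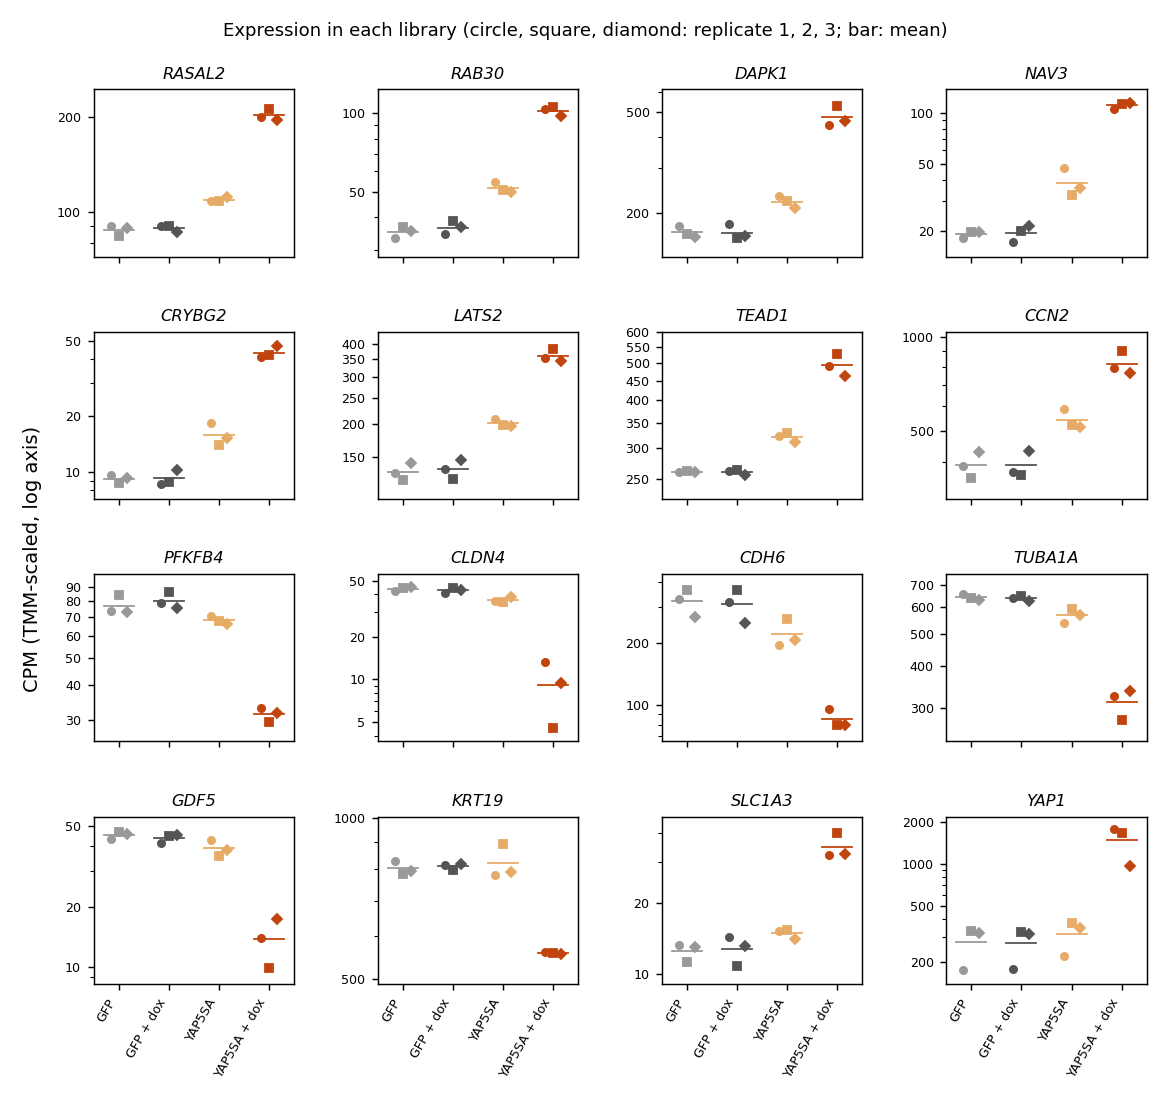
CPM of 16 genes in each library on log axes, by group, with replicate 1 as a circle, 2 as a square and 3 as a diamond and the mean as a bar. GFP libraries with and without doxycycline overlap in all 16 genes, and induced libraries lie apart from all others. The genes were picked among called genes, so this separation describes them and tests nothing. Over all genes tested, induced libraries lay above uninduced ones in 17.8% and below them in 16.8%. YAP1 in the induced group spans 970 to 1757 CPM.

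The genes named below were grouped in 40 lists by role. The lists were chosen with earlier results of these data known, so their shares and ranking describe them and test nothing. Shares of called members are read against 3.60% more positive and 3.28% more negative over all genes tested, and a list's median against -0.004. Those shares take in classes of genes with few calls. In both directions together 6.88% of all genes tested were called, and 8.22% of protein-coding genes. In the highest of 4 equal classes by mean CPM it was 12.6%. A list near these shares is not read as raised. In both directions together, 9.52% of the basement membrane list was called, 10.3% of ion channels, 10.8% of actin genes and 11.1% of mTORC1 regulators. For integrins it was 13.3% and for TGF-beta and BMP genes 13.5%. These shares lie near or below that of the highest CPM class, and the lists are not read as raised. Without the libraries numbered 1, 2 members were called in the glycolysis and hypoxia list and 2 in the axon guidance list, 1 each in the lists of collagens and glycoproteins, integrins, tubulins and kinesins, KLF and EMT factors and mTORC1 regulators, and 0 in every other list, YAP/TAZ targets and Hippo components among them. Members named that were not among the up to 4 with the smallest p of their list were picked after their values were seen.

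The YAP/TAZ targets were the list with the highest share of calls. Of 26 members 25 passed the filter on low counts, 12 (48.0% in all) were more positive and 0 more negative, with a median difference of 0.29. CCN2, a secreted matricellular protein, stood at 387, 355 and 431 CPM in GFP cells without and 373, 364 and 435 CPM in those with doxycycline, 588, 524 and 517 CPM uninduced and 796, 899 and 767 CPM induced, a difference of 0.60 ± 0.13 (adjusted p = 0.0151), a call that ended with no filter on low counts (0.60, adjusted p = 0.0755). CCN1 went from 835, 871 and 813 CPM uninduced to 1110.1, 1248 and 1035 CPM induced, against 844, 815 and 801 CPM in GFP cells without and 827, 846 and 815 CPM in those with doxycycline (difference 0.41 ± 0.08, adjusted p = 0.00851). So CCN2 was already higher in uninduced than in GFP cells, while uninduced CCN1 lay within the range of GFP cells in 2 of 3 libraries. DLC1 differed by 0.60 ± 0.09, the ectonucleotidase gene NT5E by 0.41 ± 0.06, the receptor tyrosine kinase gene AXL by 0.29 ± 0.06 and CDC42EP3 by 0.39 ± 0.07. TGFB2, a TGF-beta ligand, differed by 0.44 ± 0.10, and ASAP1 by 0.26 ± 0.07, with 6 of 12 calls lost (0.22 to 0.32).

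Members of the target list that missed the threshold included ANKRD1, at 124, 66.1 and 128 CPM in GFP cells without and 127, 69.2 and 133 CPM in those with doxycycline, 236, 210.4 and 224 CPM uninduced and 383, 457 and 452 CPM induced. Its induced libraries did not overlap the uninduced ones, but GFP library 2 was low with and without doxycycline, and the difference was 0.89 ± 0.40 (adjusted p = 0.24). Same-numbered libraries deviate together in the GFP line. With the replicate number as a block in that line only, a fit chosen after the data were seen, the value was 0.89 and the adjusted p 0.000237. ANKRD1 also passed with the block within each line and without the libraries numbered 2. It did not pass with the block over 12 libraries, in DESeq2 or in limma-voom. Tissue factor (F3, 0.73 ± 0.27), CRIM1 (0.21 ± 0.06) and AMOTL1 (0.00 ± 0.06) also missed it. The list's count was 11 to 13 in the fits that left out a library, its median 0.28 to 0.33, and without the libraries numbered 1 its count was 0 at a median of 0.34.

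Among 36 Hippo components and TEAD or VGLL factors, 34 were tested, 11 more positive and 2 more negative, with a median of 0.16. Leaving out single libraries gave 10 to 12 more positive and 2 to 3 more negative, and without the libraries numbered 1 there were 0 calls. They included negative regulators of YAP. The kinase gene LATS2 stood at 130.3, 123 and 143 CPM in GFP cells without and 135, 124 and 146 CPM in those with doxycycline, 209, 199 and 196 CPM uninduced and 352, 381 and 345 CPM induced, a difference of 0.80 ± 0.09 (adjusted p = 5.33e-04). AMOTL2 stood at 431, 451 and 398 CPM uninduced and 692, 809 and 640.5 CPM induced (0.73 ± 0.11), and the scaffold gene WWC1, also known as KIBRA, at 476, 461 and 476 and 662, 722 and 660.4 CPM (0.52 ± 0.06). Its relative WWC2 differed by 0.60 ± 0.10, the phosphatase gene PTPN14 by 0.44 ± 0.08, the LIM protein gene AJUBA by 0.32 ± 0.05 and the atypical cadherin gene FAT4 by 0.55 ± 0.09. LATS2, AMOTL2, PTPN14 and AJUBA are in both lists.

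Of the DNA-binding partners, TEAD1 stood at 260.0, 262 and 261 CPM in GFP cells without and 261, 264 and 256 CPM in those with doxycycline, 324, 329.8 and 311 CPM uninduced and 491, 528 and 463 CPM induced, a difference of 0.62 ± 0.06 (adjusted p = 2.49e-04). TEAD4 differed by 0.58 ± 0.11, at group means of 16.6 CPM uninduced and 22.7 CPM induced. TEAD2 went the other way, by -0.74 ± 0.15, from 29.7 to 17.7 CPM. The TEAD family was thus split, with TEAD1 and TEAD4 on one side and TEAD2 on the other. VGLL3, a TEAD cofactor gene, differed by 0.92 ± 0.15, its induced libraries holding 193, 222 and 204 CPM and its uninduced ones 110.3, 103 and 98.2 CPM. The YAP paralog WWTR1 stood at 226, 216 and 223 CPM uninduced and 237, 252 and 246 CPM induced (0.15 ± 0.05, adjusted p = 0.093). It passed in DESeq2 (adjusted p = 0.0459) and with the replicate block over 12 libraries (0.0494) or within each line (0.0141). It did not pass with the block in the GFP line only or in limma-voom.

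Glycolysis and hypoxia genes were the list with most members on the negative side. Of 38 members 37 were tested, 13 (35.1%) were more negative and 0 more positive, and the median was -0.23. PFKFB4 (ENSG00000114268, chromosome 3, 48517684 to 48562015), a bifunctional enzyme that sets the level of the glycolytic activator fructose 2,6-bisphosphate, had the second smallest p of all genes. It stood at 73.7, 83.9 and 73.2 CPM in GFP cells without and 79.0, 86.0 and 75.5 CPM in those with doxycycline, 70.5, 67.9 and 66.1 CPM uninduced and 33.1, 29.5 and 31.7 CPM induced, a difference of -1.18 ± 0.09 (adjusted p = 9.56e-05). The lactate exporter gene SLC16A3 stood at 314, 315 and 309.8 CPM in GFP cells without and 305, 318 and 314 CPM in those with doxycycline, 349.9, 376 and 339 CPM uninduced and 256, 242 and 244 CPM induced (-0.52 ± 0.06). Here uninduced cells lay above GFP cells and induced cells below both. The histone demethylase gene KDM3A differed by -0.59 ± 0.10 and the secreted lipase inhibitor gene ANGPTL4 by -0.85 ± 0.14. SLC2A1, the main basal glucose transporter gene, differed by -0.38 ± 0.07, PFKFB3 by -0.41 ± 0.08, the mitophagy gene BNIP3 by -0.42 ± 0.08 and the collagen prolyl hydroxylase gene P4HA2 by -0.27 ± 0.05. Other called members were less stable. GPI, TPI1, P4HA1 and MXI1 lost their calls without GFP library 1 with doxycycline (-0.26, -0.23, -0.20 and -0.45), and in further fits that left out a library. The list's count was 9 to 15 in the fits that left out a library and 2 without the libraries numbered 1, at a median of -0.25.

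DDIT4, an inhibitor of mTORC1 that hypoxia induces, stood at 36.4, 39.2 and 32.2 CPM in GFP cells without and 31.8, 38.5 and 31.1 CPM in those with doxycycline, 27.0, 35.6 and 27.5 CPM uninduced and 13.5, 5.996 and 7.85 CPM induced, a difference of -1.63 ± 0.33 (adjusted p = 0.0165). Its call ended with no filter on low counts (adjusted p = 0.0572) and with the replicate block within each line (adjusted p = 0.0576). Of 27 mTORC1 regulators tested 3 (11.1%) were more negative and 0 more positive, DDIT4, SESN3 (-0.74 ± 0.12) and SESN1 (-0.49 ± 0.12). That share was below the 12.6% called in the highest class by mean CPM. SESN1 lost its call without GFP library 1 or 3 without doxycycline (-0.48 in both), GFP library 1 with it (-0.47) or uninduced library 3 (-0.46). Sestrins pass on amino acid shortage to mTORC1. Of 26 amino acid transporters and enzymes 4 were more positive and 0 more negative. The glutamate transporter gene SLC1A3 stood at 13.2, 11.2 and 13.0 CPM in GFP cells without and 14.3, 10.7 and 13.2 CPM in those with doxycycline, 15.2, 15.4 and 14.0 CPM uninduced and 32.3, 40.0 and 32.4 CPM induced (1.20 ± 0.16). SLC7A2 and SLC7A1, transporters of cationic amino acids, differed by 1.04 ± 0.22 and 0.55 ± 0.12, the latter call ending with no filter on low counts (0.56, adjusted p = 0.0652).

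Targets of NRF2, which drives antioxidant genes, and genes of lipid synthesis had calls on the negative side only. Of 27 NRF2 targets tested 4 were more negative, with a median of -0.23, among them UGDH (-0.65 ± 0.08), which makes UDP-glucuronate, NQO1 (-0.68 ± 0.16), AKR1C3 and AKR1B1 (-0.26 ± 0.07, 11 of 12 calls lost, -0.30 to -0.21). NQO1 lost its call without GFP library 1 with doxycycline (-0.64), uninduced library 2 (-0.69) or 3 (-0.62) or induced library 1 (-0.63), and each of these left 2 members called; 7 were called without induced library 3. Of 30 cholesterol and fatty acid genes 5 were more negative, led by SREBF1 (-0.47 ± 0.06), a master regulator of lipid synthesis, and ACLY (-0.31 ± 0.07). INSIG1 (-0.59 ± 0.14, 6 of 12 calls lost, -0.74 to -0.49) and FADS2 (-0.38 ± 0.10, 8 of 12 lost, -0.45 to -0.30) were less stable, and 2 to 5 members were called in the fits that left out a library. Of 29 ribosome biogenesis genes 6 were more positive and 0 more negative, with a median of 0.13, and PNO1 (0.40 ± 0.07) and BYSL (0.35 ± 0.07) kept their calls in all 12 fits that left out a library, while UTP20 (0.28 ± 0.06) lost its call without GFP library 3 without doxycycline (0.26) or uninduced library 1 (0.28) and DDX21 (0.26 ± 0.06) in 6 of 12 fits (0.23 to 0.30). The count was 2 without uninduced library 1 and 3 without GFP library 1 or 3 without doxycycline or GFP library 1 with it. Of 28 nuclear oxidative phosphorylation genes 0 were called by edgeR, DESeq2 or limma-voom, 1 had an unadjusted p below 0.05, and 1 was more positive with the replicate block within each line.

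Podocyte genes were split. Of 36 members 30 were tested, 3 more positive and 3 more negative, with a median of -0.04. The tight junction scaffold gene TJP1 stood at 431, 435 and 436 CPM uninduced and 530.4, 546 and 523 CPM induced (0.32 ± 0.04), COL4A4, a chain of the glomerular basement membrane collagen, at 70.6, 73.0 and 73.1 and 104, 113 and 103 CPM (0.55 ± 0.08), and the membrane linker gene EZR differed by 0.65 ± 0.12. GFP libraries held 39.6, 36.7 and 39.6 CPM of COL4A4 without doxycycline and 41.9, 35.3 and 39.1 CPM with it, and the lines differed by 0.90 ± 0.06 in this gene before induction, more than the step on induction (0.56 ± 0.06). On the negative side were the intermediate filament gene nestin (NES, -0.74 ± 0.12), KIRREL1 (-0.29 ± 0.06), a relative of nephrin, and CDKN1C (-0.58 ± 0.16, 9 of 12 calls lost, -0.67 to -0.47). SYNPO (0.10 ± 0.08, adjusted p = 0.536) and PODXL (-0.34 ± 0.50, adjusted p = 0.772) did not pass. PODXL varied by library number, its induced libraries holding 36.7, 22.4 and 45.2 CPM and uninduced ones 41.5, 30.1 and 60.7 CPM, and its adjusted p was 0.00906 with the replicate block over 12 libraries.

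Of 22 parietal cell genes tested 2 were more positive and 4 more negative. The cadherin gene CDH6 stood at 329, 367 and 270.1 CPM in GFP cells without and 317, 364 and 250.2 CPM in those with doxycycline, 196, 264 and 208 CPM uninduced and 95.5, 79.4 and 79.7 CPM induced, a difference of -1.34 ± 0.24 (adjusted p = 0.00962). KRT19, a simple epithelial keratin, stood at 831, 785 and 795 CPM in GFP cells without and 817, 799 and 819.9 CPM in those with doxycycline, 782, 891 and 791 CPM uninduced and 562, 559 and 556 CPM induced (-0.57 ± 0.07). Its induced libraries were almost identical to one another. The scaffold gene AKAP12 differed by -0.65 ± 0.10, and CD44, a marker of activated parietal cells, by -0.34 ± 0.08. CD44 lost its call without GFP library 3 without doxycycline (-0.29) or GFP library 1 (-0.33) or 2 (-0.30) with it. The caveola gene CAV1 differed by 0.34 ± 0.07 on the positive side. Of 15 keratins and other intermediate filament genes tested 3 were more negative and 0 more positive, KRT19, NES and the neurofilament gene NEFM (-1.11 ± 0.18).

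Junction genes moved both ways, 4 more positive and 4 more negative of 28. On the positive side were CGN, TJP1, occludin (OCLN, 0.47 ± 0.08) and the desmosome gene PKP2 (0.74 ± 0.18, 6 of 12 calls lost, 0.60 to 0.87), and on the negative side CLDN4, CDH6, F11R (-0.34 ± 0.09) and DSC2 (-0.45 ± 0.12), the last 2 with 10 of 12 calls lost each (-0.42 to -0.26 and -0.52 to -0.34). Of 23 tubulins and kinesins 1 was more positive and 4 more negative. TUBA1A, an alpha-tubulin gene, stood at 654, 640.1 and 631 CPM in GFP cells without and 636, 648 and 626 CPM in those with doxycycline, 538, 592 and 569 CPM uninduced and 327, 277 and 338 CPM induced (-0.84 ± 0.09, adjusted p = 2.49e-04), though reads may be shared with near-identical tubulin genes. The kinesin gene KIF3C differed by -0.39 ± 0.07, and the 4 negative calls were 2 without GFP library 2 with doxycycline.

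In the matrix lists, collagens and glycoproteins had 3 of 33 tested more positive and 4 more negative, and proteases and inhibitors 4 and 5 of 31. These counts were unstable, at 1 to 5 negative calls among collagens and glycoproteins and 1 to 4 positive calls among proteases in the fits that left out a library. The fibril-associated collagen gene COL12A1 stood at 97.1, 111 and 121 CPM in GFP cells without and 102, 118 and 120.1 CPM in those with doxycycline, 219, 192 and 203 CPM uninduced and 360.5, 357 and 335 CPM induced (0.73 ± 0.12). Thrombospondin 1 (THBS1), which can activate TGF-beta, differed by 0.50 ± 0.08, the collagen VI gene COL6A2 by -0.26 ± 0.06 (6 of 12 calls lost, -0.29 to -0.23), and the protease inhibitor gene TIMP3 by 0.53 ± 0.10. The gelatinase gene MMP2 differed by -0.65 ± 0.10 and the membrane protease gene MMP14, an activator of MMP2, by -0.39 ± 0.08. PAPPA, a protease of IGF-binding proteins, differed by -0.46 ± 0.10 and lost its call without induced library 1 (-0.41). The metalloproteinase genes ADAMTS5 (0.40 ± 0.09) and ADAMTS1 (0.27 ± 0.07, 9 of 12 calls lost, 0.24 to 0.33) were on the positive side, and ADAM17 (-0.25 ± 0.06, 6 of 12 lost, -0.27 to -0.23) on the negative. ADAMTS5 lost its call without GFP library 1 without doxycycline (0.36) or uninduced library 1 (0.40). FBLIM1 (-0.32 ± 0.05), a filamin-binding adaptor that is no matrix gene, is 1 of the 4 negative calls in the list of collagens and glycoproteins. Of 21 basement membrane genes COL4A4 and LAMA2 (1.15 ± 0.32, 9 of 12 calls lost, 0.95 to 1.41) were more positive and 0 more negative. Among 30 integrin and focal adhesion genes, ITGA6 (0.36 ± 0.08) PARVA (0.29 ± 0.06) and ITGB8 (0.46 ± 0.11, 5 of 12 calls lost, 0.37 to 0.53) were more positive and tensin 1 (TNS1, -0.31 ± 0.07) more negative. Of 37 actin genes 3 were more positive, CDC42EP3, PALLD (0.27 ± 0.05) and CALD1 (0.25 ± 0.07, 10 of 12 calls lost, 0.20 to 0.29), and 1 more negative, RHOB (-1.03 ± 0.25, 10 of 12 lost, -1.26 to -0.81).

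Several secreted signals and receptors were called. Of 38 axon guidance genes tested 6 were more positive and 2 more negative. SLIT2, a ligand of the ROBO receptors that restrains podocyte adhesion, stood at 8.99, 9.55 and 8.10 CPM in GFP cells without and 8.94, 8.42 and 8.24 CPM in those with doxycycline, 15.9, 15.3 and 14.4 CPM uninduced and 28.8, 32.0 and 29.4 CPM induced (1.04 ± 0.11, adjusted p = 2.49e-04). The ephrin receptor gene EPHA2 stood at 261, 264 and 265 CPM in GFP cells without and 258, 259 and 271 CPM in those with doxycycline, 293, 282 and 291 CPM uninduced and 407, 417 and 392 CPM induced (0.49 ± 0.05). SEMA4B differed by -0.66 ± 0.11. Of 11 EGF family genes tested 3 were more positive and 0 more negative, neuregulin 1 (NRG1, 0.66 ± 0.10), EGFR (0.29 ± 0.06) and HBEGF (0.52 ± 0.14, 9 of 12 calls lost, 0.44 to 0.61). In the PDGF and FGF list, PDGFRB, the receptor that marks mesangial cells, went from 12.9 CPM uninduced to 24.0 CPM induced (0.78 ± 0.20), with 8 of 12 calls lost (0.64 to 0.86). Other markers of its cell list were at 0 (ITGA8) or abundant (TAGLN), as given above. FGF2 differed by 0.40 ± 0.10 (6 of 12 lost, 0.31 to 0.46). Of 28 WNT genes the receptor gene FZD1 (0.55 ± 0.10) and the ligand gene WNT5B (0.36 ± 0.07) were more positive and 0 more negative. This share, 7.14%, was near the 6.88% called over all genes tested.

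Of 27 chemokines and cytokines tested 1 was more positive, CCL11, and 3 more negative. Without induced library 3 the negative calls were 5, and the positive calls were 0 without GFP library 3 without doxycycline and 2 without GFP library 3 with it. The colony-stimulating factor gene CSF2 stood at 15.5, 12.1 and 11.7 CPM uninduced and 5.97, 3.35 and 5.41 CPM induced (-1.38 ± 0.27), a call that ended with no filter on low counts (adjusted p = 0.0561). The membrane chemokine gene CX3CL1 differed by -0.86 ± 0.16 and LIF by -0.31 ± 0.07. Of 18 NF-kB genes 1 was called, BCL3 (-0.68 ± 0.16, 5 of 12 calls lost, -0.83 to -0.57). That is 5.56%, against 6.88% over all genes tested. Of 29 interferon response genes 0 were called by edgeR, DESeq2 or limma-voom and 1 had an unadjusted p below 0.05, though their median was 0.22. With the replicate block within each line 7 were more positive and 1 more negative. IFIT1, the largest of them, held 8.04, 16.1 and 25.9 CPM in GFP cells without and 8.31, 10.3 and 14.3 CPM in those with doxycycline, 21.8, 15.7 and 32.4 CPM uninduced and 51.1, 25.9 and 38.1 CPM induced (1.32 ± 0.63, adjusted p = 0.276). The induced and uninduced libraries overlapped. Of 17 antigen presentation and complement genes the complement regulator gene CD55 (0.64 ± 0.10) and the peptide transporter gene TAP2 (0.55 ± 0.13) were more positive, and NLRC5 (-0.57 ± 0.13), a regulator of MHC class I genes, more negative. TAP2 lost its call without GFP library 3 without doxycycline (0.52) and NLRC5 without uninduced library 1 (-0.52).

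Of 20 KLF and EMT transcription factors tested 5 were more negative and 1 more positive. The 5 became 3 without GFP library 1 or 3 without doxycycline, GFP library 1 with it or induced library 2. KLF5, an epithelial factor, was the latter, at 31.0, 24.3 and 28.1 CPM in GFP cells without and 29.8, 24.4 and 28.0 CPM in those with doxycycline, 49.2, 44.9 and 41.3 CPM uninduced and 75.4, 93.1 and 86.8 CPM induced (0.94 ± 0.15). SOX4 differed by -0.87 ± 0.16, KLF10 by -0.44 ± 0.08 and KLF6 by -0.36 ± 0.07, the last known as an early response gene. Of 32 MAPK feedback and AP-1 genes 3 were more positive and 5 more negative, with the phosphatase gene DUSP1 (0.36 ± 0.07) on the first side and JUND (-0.63 ± 0.10), IER3 (-0.45 ± 0.07) and DUSP7 (-0.57 ± 0.11) on the other. In the TGF-beta and BMP list of 37, ID4 (0.68 ± 0.14), a BMP target, and TGFB2 were more positive, and GDF5, KLF10 and the protease gene BMP1 (-0.22 ± 0.05) more negative. BMP1 lost its call with a correction for GC content (-0.15, adjusted p = 0.0963).

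Of 30 p53 targets tested 6 were more negative and 0 more positive, with a median of -0.17, TP53INP1 (-0.62 ± 0.08) and TP53I3 (-0.34 ± 0.07) among them. RRM2B (-0.29 ± 0.06) lost its call without GFP library 1 with doxycycline (-0.28), and the pro-apoptotic gene PMAIP1 (-0.34 ± 0.08) without GFP library 1 without it (-0.30) or uninduced library 1 (-0.32). The count was 3 without GFP library 1 with or without doxycycline and 10 without induced library 3. Of 23 apoptosis regulators, anti-apoptotic BCL2 (0.82 ± 0.17) and CFLAR (0.30 ± 0.08, 9 of 12 calls lost, 0.25 to 0.35) were more positive, and PMAIP1 and pro-apoptotic BCL2L11 (-0.89 ± 0.22, 8 of 12 lost, -1.05 to -0.69) more negative. Among 38 G1/S genes E2F7 (-0.82 ± 0.14), PCNA (-0.46 ± 0.10) and CDKN1C were more negative and 0 more positive, and 5 were more negative without uninduced library 3. The G1/S share in the main fit, 7.89%, was near the 6.88% called over all genes tested. Of 28 mitosis genes 0 were called by edgeR, DESeq2 or limma-voom and 0 had an unadjusted p below 0.05, yet their median was 0.34. With the replicate block within each line 3 were more positive. MKI67 held 102, 127 and 123 CPM in GFP cells without and 53.2, 127 and 123 CPM in those with doxycycline, 139, 142 and 133 CPM uninduced and 229, 143 and 131 CPM induced (0.50 ± 0.45). Library 1 was low in the GFP group with doxycycline and high in the induced group, and the list's median was 0.13 without the first, 0.14 without the second and 0.05 without all libraries numbered 1.

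Of 29 ion channel genes 3 (10.3%) were more negative and 0 more positive, a share below the 12.6% called in the highest class by mean CPM. KCND1, a potassium channel gene, differed by -0.61 ± 0.12, while KCNMA1 (-0.27 ± 0.07) and KCNK3 (-1.36 ± 0.34) lost their calls in 9 and 11 of 12 fits that left out a library (-0.31 to -0.23 and -1.55 to -1.13). Of 30 genes of ATF4 and the unfolded protein response 1 was called in each direction, the chaperone gene HSPA5 (0.20 ± 0.05, 11 of 12 calls lost, 0.17 to 0.23) and the transcription factor gene CEBPB (-0.44 ± 0.09). Together they make 6.67%, near the 6.88% called over all genes tested. In the amino acid list the fourth call was SLC7A6 (0.48 ± 0.12, 7 of 12 lost, 0.39 to 0.55).

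In 8 called genes the GFP line changed more than the YAP5SA line, 4 in each direction. GTF2IRD2, a transcription factor gene with near-identical copies, stood at 0.788, 0.991 and 1.11 CPM in GFP cells without and 1.50, 1.47 and 1.47 CPM in those with doxycycline, 1.07, 1.03 and 0.949 CPM uninduced and 0.751, 0.552 and 0.710 CPM induced. It moved by 0.62 ± 0.17 in the GFP line and -0.59 ± 0.20 in the YAP5SA line, a difference of -1.21 ± 0.26 (adjusted p = 0.0146). Both lines were separated by doxycycline, in opposite directions, at about 1 CPM. ZGLP1 (-1.58 ± 0.35) and NTNG2 (-0.76 ± 0.18), at most 0.79 and 3.26 CPM in any library, lost their calls in 4 and 6 of the 12 fits that left out a library (-1.69 to -1.42 and -0.83 to -0.68), and TMEM126A (0.48 ± 0.13) and KRBA1 (-0.27 ± 0.07) in 10 and 11 (0.44 to 0.55 and -0.30 to -0.23). ENSG00000289372, with no symbol, differed by 1.18 and lost its call in all 12 (0.97 to 1.30).

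Gene class, abundance, length and base composition moved with the calls. Of 13716 protein-coding genes tested 8.22% were called, of 2228 long non-coding genes 2.56% and of 832 pseudogenes 0.601%. With the genes split into 4 equal classes by mean CPM, the share rose from 1.03% in the lowest class to 12.6% in the highest, while the median SE fell from 0.42 to 0.07. Genes called more positive spanned a median of 64967 bases of the genome, those more negative 29772.5 and all genes tested 27009. Their median transcript lengths were 4648, 4128 and 3256 bases. Called genes also differed in transcript GC content, with medians of 45.1% in those more positive, 55.0% in those more negative and 48.3% in all genes tested. Split into 4 equal classes by GC content, the lowest (23.5 to 42.2%) held 221 genes more positive and 79 more negative, and the highest (56.3 to 75.5%) 90 and 253. The median difference went from 0.04 to -0.06 between these classes, the GFP line staying within 0.004 of 0 and the YAP5SA line going from 0.05 to -0.06. With a GC correction, chosen after the data were seen, 611 genes were more positive and 485 more negative (1096 in all), and the lowest class held 160 and 110 and the highest 135 and 157. Of the 1202 genes 997 were called with the correction. Of the genes named, BMP1, COL6A2, FGF2, RHOB, CALD1, CFLAR, HSPA5, CDKN1C, TMEM126A, KRBA1, AKR1B1 and LAMA2 were among those that lost their call with it.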

How the data were processed

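The authors deposited 1 table of read counts per gene for the 12 libraries, whole numbers with no normalization. GRCh38 (hg38) and the names DRAGEN, Subread, featureCounts, DESeq2 and limma stand in the submitters' processing notes without versions. What each did, and whether counting used the strand, is not given in the sources used here. The mRNA kit started from 1000 ng of total RNA, per the labels' protocols. Of 62656 genes 24935 had no count. Symbols were found for 42303, and positions and GC content came from GENCODE 29 (58220 genes).

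Counts were fitted with edgeR 4.0.16 (R 4.3.3): filterByExpr on the groups (17470 genes kept), TMM, robust quasi-likelihood over all 12 libraries, 8 residual degrees of freedom, common biological coefficient of variation 7.48%. SE is the size of a log2 difference divided by the square root of F. p-values were adjusted over all genes tested. On simulated data for the interaction, run on 17264 genes, 37.3%, 66.2% and 86.2% of genes changed by 0.5, 1 and 2 were recovered (67, 65 and 65 genes), with 11 unchanged genes called. Replicate pairs differed by more than sampling noise (chi-square per gene 4.37 to 13.9), so no library was merged.

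Alternatives were RLE and upper-quartile scaling, other filters, DESeq2 1.42.0, limma-voom (limma 3.58.1), YAP1 left out of library sizes, replicate blocks and each library left out; a block in the GFP line only, leaving out a number in every group, and GC and length corrections (lowess, span 0.3) were chosen after seeing the data. Same-numbered libraries deviated from their group means with correlations of 0.23, 0.42 and 0.41 between the GFP groups, all over 0.1, the limit of the pairing rule. Between the YAP5SA groups they were -0.12, 0.35 and 0.33, which did not meet it. Across the lines they were -0.34 to -0.29 for number 1 and 0.18 to 0.28 for numbers 2 and 3. The main fit held no replicate block, so its calls and SEs use no pairing. Pairing enters only the alternative fits with a block.

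Named genes are the 12 largest called differences in each direction (at least 2 CPM in the highest group, separated libraries, no antisense symbol), the 10 smallest p-values, the 6 smallest with a larger GFP change, up to 4 called members per list, and a set of YAP targets and podocyte genes. Members and lists were chosen with earlier results of these data known. Promoters are from RefSeq. Some named genes are not reported here.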

Additional observations from a re-analysis of the deposited data

Results flagged for a closer look

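The response to doxycycline differed between the YAP5SA line and the GFP line, by the test of the difference itself, in 1202 genes, of which 127 reached a difference of 1 on the log2 scale. These genes are described above. The lines also differed before induction, so the test compares responses and not levels.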

How the results depend on the processing

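None of the 1202 genes changed sign in any of the 28 alternative fits, and 27 of them were called in every one (20 more positive, 7 more negative). RLE (1195) and upper-quartile scaling (1225, with 609 more positive and 616 more negative), no filter (1090), a stricter filter (1288), DESeq2 (1410), limma-voom (1226) and a length correction (1238) stayed within 1.5 times of 1202. With the replicate block over 12 libraries 2418 genes were called (1162 more positive, 1256 more negative), 2317 with the GC correction added, and with the block within each line 3668, of which 261 reached 1; the pairing rule was met in the GFP line only, and a block there gave 1472. Leaving out 1 library gave 750 to 1387 genes, and 78 to 185 at 1 or more. Leaving out number 1, 2 or 3 in every group gave 41, 582 and 701 genes, and 22, 62 and 101 at 1 or more. Each of these fits rests on 8 libraries, and their median SEs were 0.19, 0.15 and 0.15. Within every group libraries 2 and 3 differed most from each other. Their chi-square per gene was 9.14 to 13.9, against 4.37 to 7.95 for pairs with library 1. The cause of the lower count was not tested. Of 3972 values of named genes under alternatives 3429 kept their side of the threshold, 534 fell short of it and 9 newly passed. Genes with few counts limit the reach, since the lowest of 4 equal classes by CPM had a median SE of 0.42.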
